A study of Mus musculus with 12 samples.

Results

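Erythroid maturation without induction of Alas2 was examined by comparing 3 RNA-seq libraries of mutant cells that had received estradiol with 3 libraries of untreated wild-type (WT) cells, 6 of the 12 libraries of the series. All libraries come from G1E-ER-GATA-1, a mouse erythroid precursor line without functional endogenous GATA-1 that carries GATA-1 joined to the hormone-binding part of the estrogen receptor, a fusion that becomes active when beta-estradiol is added. The mutant cells are the same line with altered cis-elements of Alas2, called a double mutant in the labels, and were kept for 48 h with 1 µM beta-estradiol and no 5-aminolevulinic acid (5-ALA). The untreated WT cells received neither compound. All cultures held erythropoietin, Kit ligand from conditioned medium, and puromycin. The 3 libraries of WT cells with estradiol (also 1 µM, 48 h) are set beside the comparison. Those of mutant cells with estradiol and 5-ALA (3 libraries) entered the tests only through the low-count filter, scaling and common estimate of the spread. Their levels of Alas2, Hmox1 and globins are given at the end.

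Genotype and treatment both differ between the compared groups, and untreated mutant cells are not among the libraries. A difference that the mutant cells had before estradiol therefore cannot be told apart from one that arose with it. The labels do not say from how many lines the mutant libraries come, nor that libraries of a group are separate cultures, so p-values measure only the spread between these samples. In bulk RNA, fewer cells of a kind and less RNA per cell cannot be told apart either.

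As background, GATA-1 is the master transcription factor of red cell formation: it switches on globin, heme and membrane genes while cells stop dividing and shut progenitor genes down. Alas2 encodes the erythroid form of 5-aminolevulinate synthase, which joins glycine and succinyl-CoA to 5-ALA and sets the pace of heme synthesis. Heme is the oxygen carrier of hemoglobin and also a signal. It releases the repressor BACH1 from antioxidant and globin genes, and its lack activates the kinase HRI (Eif2ak1), which slows translation and raises the factor ATF4.

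The 6 libraries held 20309085 to 43548387 expected counts, and 12115 of 25097 genes passed the filter on low counts. Levels are counts per 1000000 (CPM) after scaling for library composition, and means are given ± SD with n = 3 libraries. Values given after a gene with no unit are log2 fold changes against untreated cells. A gene is called at an adjusted p below 0.05 in the edgeR quasi-likelihood test over all genes. The difference was broad: 10669 genes (88.1%) were called, 5151 of them (42.5% of those tested) higher and 5518 (45.5%) lower in mutant cells with estradiol. By 2-fold or more, 2914 (24.1%) were higher and 3347 (27.6%) lower, and in 10685 genes (88.2%) the libraries of the groups did not overlap. The same holds for the genes named below, apart from Alas2, Car2, Ldb1, Rplp0, Sqle, Tspoap1 and Rcn1, whose libraries overlap. A call is therefore the usual state of a gene here, and the size of a change says more than its call. WT cells with estradiol, compared with the same untreated libraries, had 5243 genes (43.3%) higher and 5621 (46.4%) lower (89.7% called), 26.5% higher and 30.3% lower by 2-fold or more. Because both comparisons share the untreated libraries, their values are given side by side, and the mutant and WT cells with estradiol were also compared directly. In that direct test 68.8% of genes were called: 4258 genes (35.1%) were higher and 4076 (33.6%) lower in mutant cells, 627 (5.18%) and 799 (6.6%) of them by 2-fold or more. Among called genes, 51.1% were higher in mutant cells in that test, but 66.5% with scaling by library totals and 70.7% with limma on TPM. Among those called with a change of 2-fold or more, 44.0% were higher, but 57.6% with library totals and 71.4% with limma on TPM. Over the 9 libraries of these groups, 86.7% of the variance lay on a component that parted untreated from treated cells, and 8.94% on one that parted mutant from WT cells with estradiol.

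Alas2 (ENSMUSG00000025270, plus strand of mm10 chromosome X, 150547375-150570638) stayed near its untreated level in the mutant cells. The untreated libraries had 4.92, 5.96 and 4.46 CPM and the mutant libraries 9.48, 8.24 and 5.199 CPM. The lowest mutant library lay within the untreated range. The log2 fold change was 0.58 (SE 0.196, adjusted p = 0.021), and that call was lost with library totals (0.39, adjusted p = 0.0954), with limma on TPM (0.39, adjusted p = 0.0545), with only the 6 libraries (0.62, adjusted p = 0.0788), and without untreated replicate 1 (0.56, adjusted p = 0.061), untreated replicate 3 (0.48, adjusted p = 0.0806) or mutant replicate 2 (0.47, adjusted p = 0.098). WT cells with estradiol had 4308, 4289 and 4278 CPM. Exons of Apex2 on the opposite strand overlap those of Alas2, so some of these few reads may belong to either gene. Alas1, which encodes the ALA synthase of all cells, had 12.8, 13.8 and 14.6 CPM in untreated and 8.27, 8.56 and 7.997 CPM in mutant libraries, a fall by 0.73 on the log2 scale (adjusted p = 2.58e-10). Per length, the mutant cells held 9.297 ± 0.195 TPM of Alas1 and 7.68 ± 2.67 TPM of Alas2, whereas WT cells with estradiol held 5.45 ± 0.682 and 3523 ± 17.1 TPM.

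Later enzymes of heme synthesis were higher in the mutant cells, and of the 9 genes of the pathway tested 8 were called higher and 1 lower (42.5% and 45.5% of all genes tested), with 6 of the rises at 2-fold or more and a median log2 fold change of 1.83 (-0.02 over all genes). Fech, ferrochelatase, which inserts iron into the finished ring, had 202, 200.3 and 197 CPM in untreated and 1426, 1443 and 1405 CPM in mutant libraries. Alad, which condenses 5-ALA to porphobilinogen, went from 90.98, 89.9 and 92.3 to 553, 575 and 559.9 CPM, and Urod, uroporphyrinogen decarboxylase, from 76.4, 74.5 and 75.7 to 505, 520.3 and 528 CPM. In each, the libraries of the groups lay far apart, with log2 fold changes of 2.84 (SE 0.0236), 2.63 (SE 0.0272) and 2.78 (SE 0.0273). Ppox, protoporphyrinogen oxidase, had a log2 fold change of 2.49, Cpox, coproporphyrinogen oxidase, 1.00 and Uros, uroporphyrinogen synthase, 0.96. For Alad, Uros, Urod and Ppox the mutant levels exceeded those of WT cells with estradiol. Alad had 260.4 ± 2.46 CPM in estradiol-treated WT cells (mutant minus WT log2 1.11, adjusted p = 3.26e-25) and Ppox 70.3 ± 1.15 CPM (0.75, adjusted p = 2.87e-19), whereas Fech was slightly lower in mutant cells (-0.15) and Cpox did not pass the test (0.01, adjusted p = 0.866). Exons of Cpox overlap Gpr15, and those of Ppox overlap B4galt3, each on the opposite strand.

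**Figure D1:**
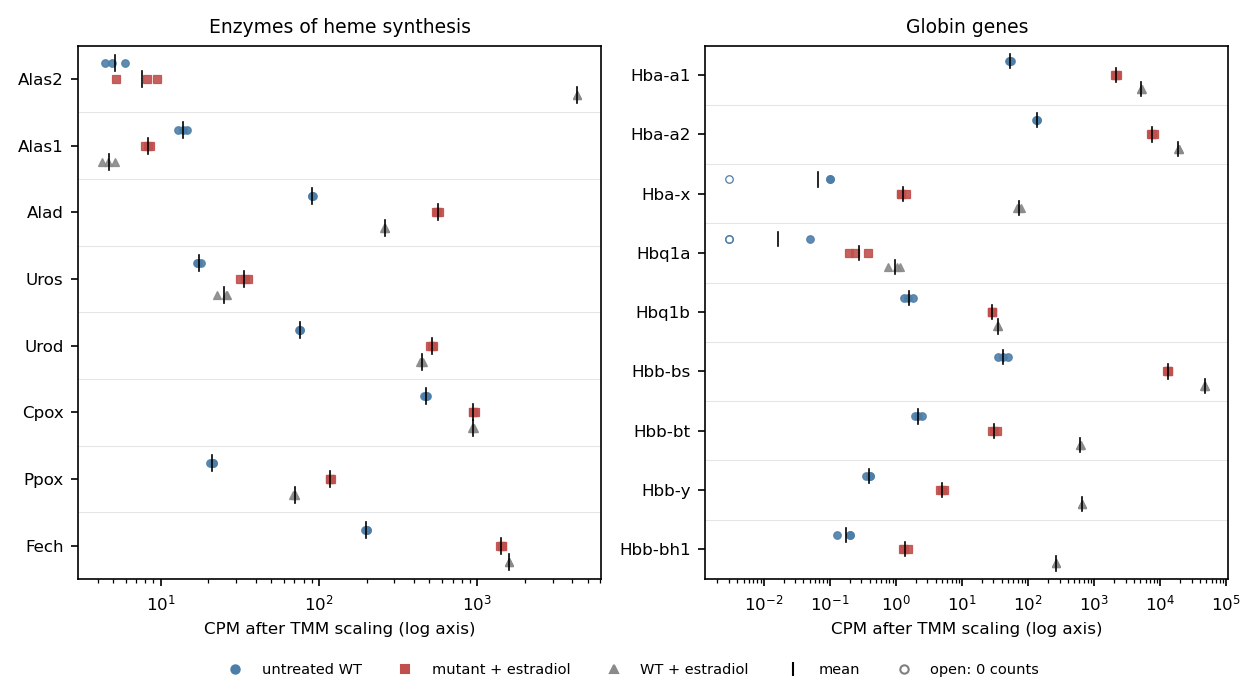
Levels of 8 heme synthesis genes (left) and 9 globin genes (right) in CPM on a log axis; each point is 1 library, the bar is the group mean, and open points at the left are libraries with 0 counts. Alas2 alone among the heme synthesis genes shown had mutant libraries (5.20 to 9.48 CPM) overlapping untreated ones (4.465 to 5.96 CPM), and every globin gene had its mutant libraries between the untreated libraries and those of WT cells with estradiol.

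The promoters of Alas2, of the adult beta-globin gene Hbb-bs and of the alpha-globin gene Hba-a2 are shown because these genes are classic GATA-1 targets and parted in the mutant cells. They are taken from the 250 bases before the start in the RefSeq table (GRCm38.p6, which shares coordinates with mm10), without the 42, 168 and 3 bases that lie inside a GENCODE gene, and run 5′ to 3′ on the gene's strand, which is minus for Hbb-bs and plus for the others. Capitals mark a GATA motif.
Alas2 (chrX:150547167-150547374): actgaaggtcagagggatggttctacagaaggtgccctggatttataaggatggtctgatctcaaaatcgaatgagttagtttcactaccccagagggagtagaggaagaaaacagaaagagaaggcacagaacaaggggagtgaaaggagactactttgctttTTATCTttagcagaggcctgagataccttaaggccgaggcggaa
Hbb-bs (chr7:103828097-103828178): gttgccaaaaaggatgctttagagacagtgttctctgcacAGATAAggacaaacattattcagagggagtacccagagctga
Hba-a2 (chr11:32296242-32296488): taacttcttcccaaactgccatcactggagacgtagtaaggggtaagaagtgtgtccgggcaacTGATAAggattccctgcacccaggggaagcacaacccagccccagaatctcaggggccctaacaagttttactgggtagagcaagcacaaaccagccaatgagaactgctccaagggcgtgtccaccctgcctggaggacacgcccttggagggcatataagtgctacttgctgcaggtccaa
The letters searched were AGATAA, its variant AGATAG, then TGATAA and likewise TGATAG, on both strands of the 250 bases upstream, and the Alas2 match is AGATAA on the opposite strand. Each of the 3 promoters holds 1 match, at 86, 210 and 186 bases before the start of the table's transcript in the order shown. Such a match is common: 29.7% of all 27025 promoters in the table hold it, 21% of the 9187 tested genes with a promoter, 23.4% of those higher by 2-fold or more and 20.6% of those lower by 2-fold or more.

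Globin genes rose in the mutant cells, and all 9 tested were higher in mutant cells by 2-fold or more (24.1% of all genes, median log2 fold change 4.01). Hbb-bs (ENSMUSG00000052305, chromosome 7, 103826534-103828096, minus strand) had 41.6, 49.5 and 35.7 CPM in untreated and 12729, 13128 and 13173 CPM in mutant libraries. The groups were 310.3-fold apart (log2 8.28, SE 0.115, adjusted p = 1.96e-12), against a log2 fold change of 10.12 in WT cells with estradiol. The alpha-globin genes Hba-a2 and Hba-a1 went from 136 ± 3.03 to 7578 ± 448 CPM (log2 5.80) and from 52.96 ± 1.63 to 2153 ± 78.8 CPM (5.34). Hba-a1 and Hba-a2 encode nearly the same protein, as do Hbb-bs and Hbb-bt, so the split of reads within each pair depends on the model that made the counts.

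The globins as a whole took 0.0272% ± 0.00162 of all counts in untreated, 2.31% ± 0.0698 in mutant and 6.59% ± 0.0315 in WT cells with estradiol. The 3 mutant libraries ranged from 2.24% to 2.38% and the untreated ones from 0.0254% to 0.0286%, an 84.85-fold difference of the means (exact permutation p = 0.1, two-sided, the smallest that 3 against 3 allows). Hbb-bt had 31.1 ± 2.74 CPM in mutant against 621 ± 7.71 CPM in WT cells with estradiol (log2 -4.33), and the embryonic beta-like gene Hbb-y had 0.3497, 0.408 and 0.411 CPM in untreated, 5.06, 5.401 and 4.59 in mutant and 653 ± 5.97 in WT cells with estradiol (-7.01). For Hbb-bs and Hba-a2 that difference was -1.85 and -1.32. The embryonic Hbb-bh1 rested on 18 untreated counts, for a mutant-to-untreated ratio of 8.02 (95% interval 4.89 to 13.9), and Hba-x on 8, for 16.98 (95% interval 8.36 to 40.2). Hbq1b, a theta-like alpha-globin gene, was the nearest to its WT level, at 28.2 ± 0.174 against 34.9 ± 0.691 CPM, and its copy Hbq1a had 2 untreated counts, for a ratio of 15.4 (95% interval 3.89 to 133). In the direct test all 9 globin genes were lower in mutant than in estradiol-treated WT cells (33.6% of all genes were), also under each other scaling except limma on TPM, where 8 were.

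Iron and heme handling was mixed. Of 28 genes tested, 17 were higher and 10 lower in mutant cells (42.5% and 45.5% of all genes tested). By 2-fold or more, 9 were higher and 4 lower (24.1% and 27.6%), and Abcb10 rose most. Abcb10, a mitochondrial transporter that stabilises mitoferrin, had 37.2, 38.2 and 34.3 CPM in untreated and 1962, 1968 and 1960 CPM in mutant libraries. Its log2 fold change of 5.75 was slightly above that of WT cells with estradiol (5.56). Ftl1, the ferritin light chain, which stores iron, went from 994, 970.2 and 1015 to 13562, 14079 and 14583 CPM (3.83) and from 0.1145% to 1.424% of all counts. Slc25a37, mitoferrin-1, the mitochondrial iron importer, had a log2 fold change of 2.47, and Tfrc, the transferrin receptor that brings iron into the cell, 0.89 against 1.95 in WT cells with estradiol.

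Other members fell, or rose less than in WT cells with estradiol. Tfr2, a transferrin sensor, had 99.5, 96.5 and 94.5 CPM in untreated and 11.7, 11.4 and 12.01 CPM in mutant libraries (-3.05), with 2.53 ± 0.295 CPM in WT cells with estradiol. Slc48a1, which moves heme out of vesicles into the cytosol, fell by 0.99 in mutant cells but had a log2 fold change of 0.41 in WT cells with estradiol (mutant minus WT -1.40, adjusted p = 1.91e-28). Exons of Hdac7 overlap those of Slc48a1 on the opposite strand. Flvcr1, the heme exporter, had log2 fold changes of 0.49 and 1.6, and Slc40a1, ferroportin, which exports iron, 0.56 and 1.23.

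Genes of heme degradation and of the BACH1 and NRF2 antioxidant response were mixed. Of 20 tested, 8 were higher and 11 lower in mutant than in untreated cells (42.5% and 45.5% of all genes, median -0.30). By 2-fold or more, 5 were higher and 6 lower (24.1% and 27.6% of all genes). WT cells with estradiol had 11 higher and 7 lower (43.3% and 46.4% of all genes, median 0.61). Against WT cells with estradiol 15 were lower in mutant cells and 4 higher (33.6% and 35.1% of all genes). Hmox1, heme oxygenase 1, which opens the heme ring, had 11.3, 11.2 and 10.9 CPM in untreated and 26.8, 26.2 and 26.2 CPM in mutant libraries. It was 2.37-fold higher, against 24.9-fold in WT cells with estradiol, which had 276 ± 3.08 CPM. Nqo1, a quinone reductase, fell by 1.79 in mutant cells, and Gsr, glutathione reductase, by 1.83, against -0.48 and -0.79 in WT cells with estradiol. Txn1, thioredoxin, and Me1, malic enzyme, had log2 fold changes of -2.50 and -2.81 in mutant and -2.60 and -3.03 in WT cells with estradiol.
Among the members that were higher, Blvrb, biliverdin reductase B, an abundant red cell enzyme, went from 78.96, 73.8 and 77.2 to 630.5, 644 and 688 CPM (3.09), and Cat, catalase, which removes hydrogen peroxide, had a log2 fold change of 1.59 against 2.77. Hmox2, the constitutive heme oxygenase, was higher in mutant cells (1.38) and slightly lower in WT cells with estradiol (-0.25), each against untreated cells. Exons of Cdip1 overlap those of Hmox2. Bach1 itself, the heme-sensing repressor, went from 22.2, 22.2 and 22.2 to 697, 691 and 692 CPM (4.97), with 736 ± 9.16 CPM in estradiol-treated WT cells (-0.09, adjusted p = 0.000781).

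The largest rises, taken among called genes with at least 10 CPM on average over the 6 libraries and groups that did not overlap, were those of Ctsf, Tmem184a, Pdia2, Kctd19, Ypel4, Matn1, Slc38a5, Ttc12, Hbb-bs and Ache. Ctsf, cathepsin F, a lysosomal protease, had 0 counts in all untreated libraries and 32.8, 34.04 and 34.3 CPM in mutant ones, so that it was at least 1168-fold higher, computed against 3 counts over the untreated group. Pdia2, a protein disulfide isomerase, had 8 untreated counts and 55.9, 56.7 and 66.4 CPM in mutant libraries, for a ratio of 774 (95% interval 392 to 1793). WT cells with estradiol had 8.54 ± 1.94 CPM. Ache, acetylcholinesterase, which sits on the red cell surface, had 2.55, 3.103 and 2.54 CPM in untreated and 762, 787 and 823 CPM in mutant libraries, a 295-fold difference. Slc38a5, a glutamine and serine transporter, went from 0.1998, 0.408 and 0.103 to 82.7, 80.9 and 81.7 CPM, and Matn1, which encodes the matrix protein matrilin 1, from 0.5995, 0.939 and 0.642 to 263, 259.9 and 278 CPM. Tmem184a, a membrane protein gene, had 213, 224 and 218 CPM in mutant libraries, and its exons overlap those of Mafk and Gm26938. Kctd19 and Ypel4 rested on 5 and 9 untreated counts, with ratios of 692 (95% interval 296 to 2134) and of 474 (95% interval 249 to 1037). Exons of Plekhg4 overlap those of Kctd19.
Ttc12, a gene of ciliary dynein assembly, differed from the other 9. It had 6 counts over the untreated libraries and 6 over those of WT cells with estradiol, but 20.5, 19.6 and 19.7 CPM in mutant libraries, for a mutant-to-untreated ratio of 342 (95% interval 157 to 934). For the other 9, the fold changes or bounds in WT cells with estradiol against the same untreated libraries, which chose these genes, ran from 112.5-fold for Pdia2 upward and are given as a description.

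The largest falls were those of Shank3, Erv3, Tespa1, Lyl1, Cpa3, Myb, Bub1b, Vim, Dctd and Itih5. Shank3, a scaffold protein gene best known from synapses, had 62.6, 58.8 and 56.97 CPM in untreated and 0, 0.136 and 0.0608 CPM in mutant libraries (8 counts in all), for an untreated-to-mutant ratio of 726 (95% interval 368 to 1683). Erv3, an endogenous retroviral gene, and Tespa1, a gene of T cell receptor signalling, had ratios of 616 (95% interval 367 to 1127) and of 633 (95% interval 271 to 1952). Vim, vimentin, an intermediate filament protein that red cell precursors lose, had 135, 122 and 128 CPM in untreated and 0.632, 0.272 and 0.152 CPM in mutant libraries, and Myb, the progenitor transcription factor, 227, 222 and 225 and 0.632, 0.522 and 0.304 CPM. In both, every mutant library was under 1 CPM. Lyl1, a relative of Tal1, went from 145 ± 2.99 to 0.289 ± 0.103 CPM. Its exons overlap Nfix. Dctd, dCMP deaminase of nucleotide synthesis, and Itih5, an inter-alpha-trypsin inhibitor chain, had ratios of 377 (95% interval 205 to 786) and of 368 (95% interval 229 to 631). Because these 10 genes were chosen by their values in the mutant libraries, their levels against WT cells with estradiol are given as a description. The WT-to-mutant ratio was 2.54 (95% interval 1.31 to 5.18) for Erv3 and 7.95 (95% interval 4.75 to 14.1) for Itih5, and the levels in WT cells with estradiol were low as well, for example 1.97 ± 0.169 CPM of Vim and 2.12 ± 0.32 CPM of Myb.

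**Figure D2:**
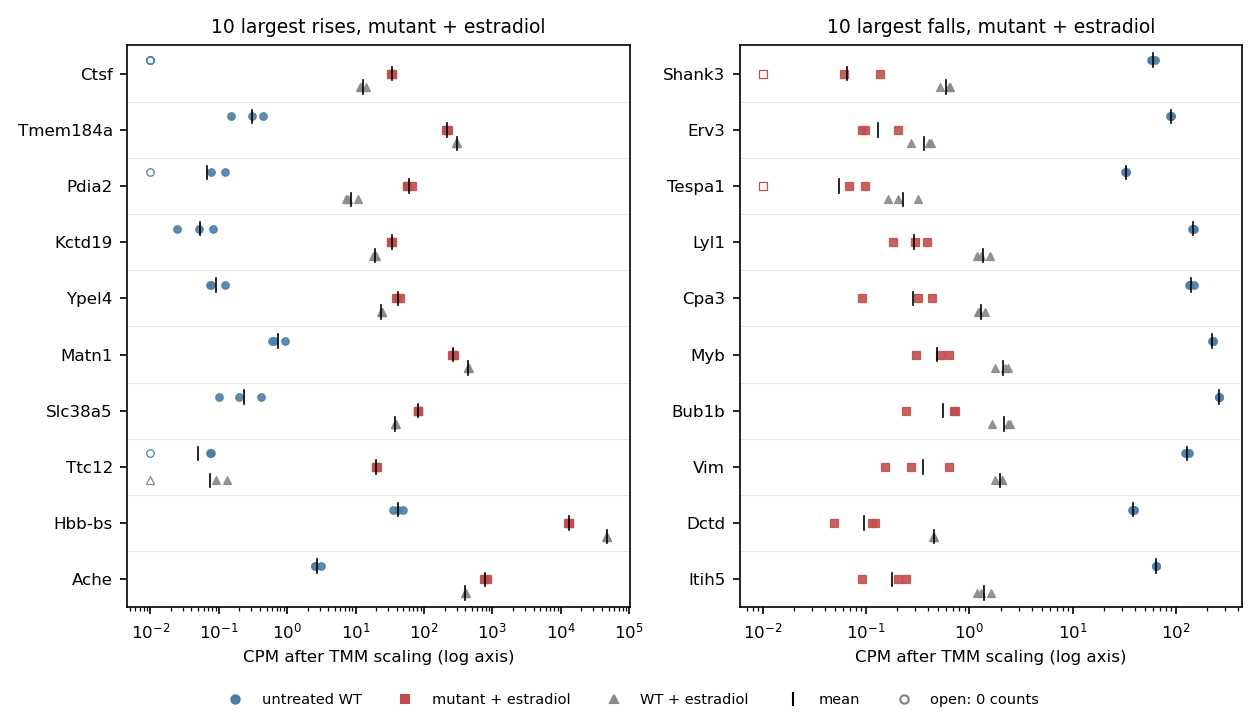
The 10 genes with the largest rises (left) and falls (right) in mutant cells with estradiol against untreated WT cells, in CPM on a log axis; points are libraries, bars are means, and open points mark 0 counts. WT cells with estradiol lie on the mutant side for all genes but Ttc12, whose WT libraries with estradiol stay at the untreated level.

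Red cell membrane and surface genes were mostly higher, 20 of 23 tested, with 2 lower, Car1 and Slc2a1 (median 1.96). Over all genes tested 42.5% were higher and 45.5% lower. By 2-fold or more, 17 of the list rose and 1 fell (24.1% and 27.6% of all genes). Slc4a1, band 3, the anion exchanger that anchors the membrane skeleton, had 7.82, 6.17 and 7.31 CPM in untreated and 970.3, 992 and 989.5 CPM in mutant libraries. It reached 136-fold the untreated level (log2 7.09, SE 0.0413), but 2821 ± 11.2 CPM in WT cells with estradiol (mutant minus WT -1.52). Sptb, beta-spectrin of the skeleton, had 75.1, 75.9 and 69.5 CPM in untreated and 5159, 5253 and 5238 CPM in mutant libraries (6.15), with 4713 ± 41.1 CPM in WT cells with estradiol. Exons of Plekhg3 overlap those of Sptb. Ank1, ankyrin, which ties band 3 to the skeleton, had a log2 fold change of 4.14 against 4.08.
Dmtn, dematin, which bundles actin, went from 0.1998, 0.4899 and 0.128 to 62.7, 62.5 and 64.8 CPM and stood above WT cells with estradiol (16.4 ± 0.712 CPM, 1.94). Car1, carbonic anhydrase 1, went from 25.3, 24.5 and 26.5 to 0.243, 0.136 and 0.182 CPM, with 17 mutant counts and an untreated-to-mutant ratio of 147 (95% interval 91.4 to 252). Car2, carbonic anhydrase 2, was not called, at 1092, 1073 and 1116 against 1112, 1105 and 1120 CPM (0.02, adjusted p = 0.334; below 0 with library totals), and had 2120 ± 5.54 CPM in WT cells with estradiol.

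Of 22 erythroid transcription factors and partners 16 were higher and 5 lower in mutant cells (42.5% and 45.5% of all genes, median 1.62). By 2-fold or more, 13 were higher and 4 lower (24.1% and 27.6%). Gata1 had 446, 439.5 and 446 CPM in untreated and 713, 718 and 735 CPM in mutant libraries (0.70), and 868 ± 11.7 CPM in WT cells with estradiol. Reads of the native gene and of the fusion cannot be told apart here. Its partner gene Zfpm1, FOG-1, went from 100.3 ± 4.27 to 814 ± 30.9 CPM, and Klf1, the activator of beta-globin, from 30.1 ± 2.07 to 110.2 ± 7.44 CPM against 105 ± 2.52 in WT cells with estradiol. For Klf1 the direct test made no call (0.08, adjusted p = 0.443). Foxo3, which drives antioxidant and clearance genes, had a log2 fold change of 2.99, Nfe2, a globin enhancer factor, 1.76, and Mafk, its small partner, 4.19. The lower factors were Lyl1, Sox6, E2f2, Bcl11a and Nfe2l1. Bcl11a, a repressor of embryonic and fetal globin genes, had 111, 105 and 107 CPM in untreated, 26.5, 25.99 and 25.9 in mutant and 6.65 ± 0.339 in WT cells with estradiol, so that the mutant libraries lay between the groups (mutant minus WT 1.98, adjusted p = 1.28e-22). E2f2, a factor of erythroid cell division, fell by 3.31 in mutant and had a log2 fold change of -4.60 in WT cells with estradiol. Sox6, a partner of Bcl11a in globin silencing, fell by 3.92. Ldb1, the scaffold of the GATA1-TAL1 complex, was not called (0.02, adjusted p = 0.549; below 0 with library totals). Its exons overlap Pprc1.

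Of 14 progenitor genes 10 were lower (45.5% of all genes) and 4 higher (42.5%), namely Runx1, Hhex, Cd34 and Fli1 (median -1.19). Kit, the receptor for the Kit ligand in the medium, had 536, 530.4 and 537 CPM in untreated and 4.42, 3.68 and 2.95 CPM in mutant libraries, 149-fold less. Gata2, the GATA factor that GATA-1 replaces, had 498, 478 and 472 and 27.5, 28.6 and 27.8 CPM (-4.10). Myc, a driver of growth, fell by 2.12. WT cells with estradiol had 17.6 ± 0.539 CPM of Kit, 59.8 ± 0.73 of Gata2 and 2.12 ± 0.32 of Myb (mutant minus WT -2.30, -1.09 and -2.15), a description for genes named by their fall in the mutant libraries. Fli1, an ETS factor of megakaryocytes, rose from 15.98 ± 0.923 to 81.9 ± 0.801 CPM. In the erythropoietin pathway 12 of 16 genes were higher (42.5% of all genes) and 3 lower (45.5%), Erfe, Stat5a and Podxl (median 1.42). The receptor gene Epor had 39.4, 36.2 and 39.1 CPM in untreated and 91.7, 99.2 and 101 CPM in mutant libraries (1.35), and its kinase Jak2 1.49. The feedback inhibitors Cish and Socs1 rose by 3.59 and 5.48, the latter from 13 untreated counts with a ratio of 46.7 (95% interval 27.1 to 88.2). The survival kinase gene Pim1 and the adaptor Irs2 had log2 fold changes of 2.99 and 3.01. Exons of Stat3 overlap those of Stat5a, those of Ilkap overlap Erfe, those of Gm26885 overlap Pim1 and those of 9530052E02Rik overlap Irs2.

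Genes of DNA replication and mitosis were lower almost without exception. Of 24 replication genes 23 fell by 2-fold or more (27.6% of all genes), with a median log2 fold change of -3.72, and all 24 mitosis genes did, with -4.55. Mcm6, a subunit of the replicative helicase (ENSMUSG00000026355, chromosome 1, 128331590-128359664, minus strand), had 592, 592 and 633 CPM in untreated and 10.1, 8.42 and 7.72 CPM in mutant libraries. Cdk1, the kinase of mitotic entry (ENSMUSG00000019942, chromosome 10, 69335146-69352938, minus strand), had 107, 107 and 118 and 0.827, 0.5901 and 0.608 CPM, and Bub1b, of the spindle checkpoint, 259.6, 259 and 261 and 0.729, 0.704 and 0.243 CPM. The mutant libraries of all 3 genes lay far below the untreated ones, by factors of 70.7, 170.1 and 466. Rrm2, which makes deoxynucleotides, Cdt1, which licenses origins, and Aurkb, a mitotic kinase, had log2 fold changes of -5.45, -5.81 and -7.23. Cdc45, a helicase partner, and Bub1, a checkpoint kinase, had log2 fold changes of -5.67 and -7.90. Fen1, the flap endonuclease of lagging strands, was not called (-0.02, adjusted p = 0.466). Its exons overlap Tmem258, and those of Cdc45 overlap Ufd1. For Mcm6, Cdk1 and Bub1b, also named by their fall in the mutant libraries, the log2 difference of mutant minus WT cells with estradiol was -1.33, -1.17 and -2.00. In the direct test the lists as a whole split, with 10 replication genes higher and 11 lower and 10 mitosis genes higher and 9 lower (35.1% higher and 33.6% lower over all genes). With library totals it was 12 higher and 7 lower for replication and 12 higher and 6 lower for mitosis. Over all 12115 genes 5650 were then higher and 2844 lower, so that the shift was not particular to these lists.

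The promoters of Mcm6 and Cdk1 are shown as examples of genes of division, many of which E2F factors control. Capitals mark matches to an E2F motif.
Mcm6 (chr1:128359706-128359955): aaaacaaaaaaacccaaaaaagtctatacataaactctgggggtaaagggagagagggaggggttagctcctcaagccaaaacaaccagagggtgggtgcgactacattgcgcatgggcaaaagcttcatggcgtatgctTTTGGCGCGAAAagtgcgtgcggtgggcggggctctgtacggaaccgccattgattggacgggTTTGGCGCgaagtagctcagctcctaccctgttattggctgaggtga
Cdk1 (chr10:69352939-69353162): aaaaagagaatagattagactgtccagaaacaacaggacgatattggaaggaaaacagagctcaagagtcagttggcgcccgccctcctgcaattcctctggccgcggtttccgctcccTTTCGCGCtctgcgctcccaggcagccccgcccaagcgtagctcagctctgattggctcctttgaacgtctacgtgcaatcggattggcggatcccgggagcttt
The letters searched were TTTCCCGC, TTTCGCGC, TTTGCCGC and TTTGGCGC on both strands, in the same RefSeq windows as above. Mcm6 holds 3 matches, of which those at 110 and 106 bases before the start overlap on opposite strands, and the other is at 47 bases. Cdk1 holds 1, at 131 bases. Among all promoters 2.16% hold a match, among those of tested genes 3.94%, among those of genes lower by 2-fold or more 5.28% and among those of genes higher by 2-fold or more 2.41%.

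Of 19 genes that hold back the cell cycle or respond to p53, 17 were higher, 15 of them by 2-fold or more (42.5% and 24.1% of all genes, median 2.00). Btg2, an antiproliferative gene, had 12.4, 11.6 and 11.1 CPM in untreated and 1373, 1351 and 1391 CPM in mutant libraries, 117-fold more, and 2803 ± 15.2 CPM in WT cells with estradiol. Cdkn1b (p27), which blocks entry into S phase, went from 30.7, 27.6 and 29.1 to 419.5, 413 and 418 CPM, and Cdkn1a (p21) had a log2 fold change of 3.53. Trp53inp1, a p53 target that also acts in autophagy, and Ccng2, cyclin G2, had log2 fold changes of 5.47 and 3.88. Cdkn2c (p18) stood at 96.5, 96.5 and 108 CPM in mutant libraries against 27.7, 24.2 and 26.1 in untreated ones and 33.4 ± 2.05 in WT cells with estradiol, which is 1.94 and 0.36 above untreated cells on the log2 scale (mutant minus WT 1.58, adjusted p = 1.27e-12). The 2 lower genes were Cdkn2b, with 0 mutant counts and at least 27.95-fold lower against a floor of 3 counts over the group, and Gadd45b (-2.09).

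Of 23 genes of autophagy and organelle clearance 18 were higher (42.5% of all genes) and 4 lower (45.5%), namely Atg5, Fundc1, Atg7 and Xpo7 (median 1.39). Pink1, the kinase that marks damaged mitochondria, had 6.14, 4.94 and 5.83 CPM in untreated and 133, 135 and 137 CPM in mutant libraries (4.56). Gabarap and Map1lc3b, which coat autophagosomes, rose by 3.37 and 3.40, and Map1lc3a by 3.95. Bnip3l (NIX), the receptor that removes mitochondria from reticulocytes, had a log2 fold change of 1.17, and Ulk1, the kinase that starts autophagy, 2.40 against 3.34 in WT cells with estradiol. Exons of Zcchc14 overlap Map1lc3b and those of Npm2 overlap Xpo7. In the direct test 15 of these genes were lower and 5 higher in mutant cells (33.6% and 35.1% of all genes). With library totals 9 were higher and 8 lower, but over all 12115 genes 5650 were then higher and 2844 lower. With limma on TPM 9 were higher and 6 lower, and over all genes 5618 were higher and 2326 lower. The turn of this list thus came with a shift of all genes.
Of 18 apoptosis genes 8 were higher and 9 lower, near the shares over all genes tested (42.5% and 45.5%). Bcl2l1 (BCL-XL), the survival protein of late erythroblasts, had 39.9, 36.8 and 38.1 CPM in untreated and 440.5, 451 and 459.6 CPM in mutant libraries (3.55), with 849.9 ± 3.91 CPM in WT cells with estradiol (-0.92). Bbc3 (PUMA), a p53-induced death activator, rose by 3.39. Bcl2, another survival protein, fell by 3.80.

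**Figure D3:**
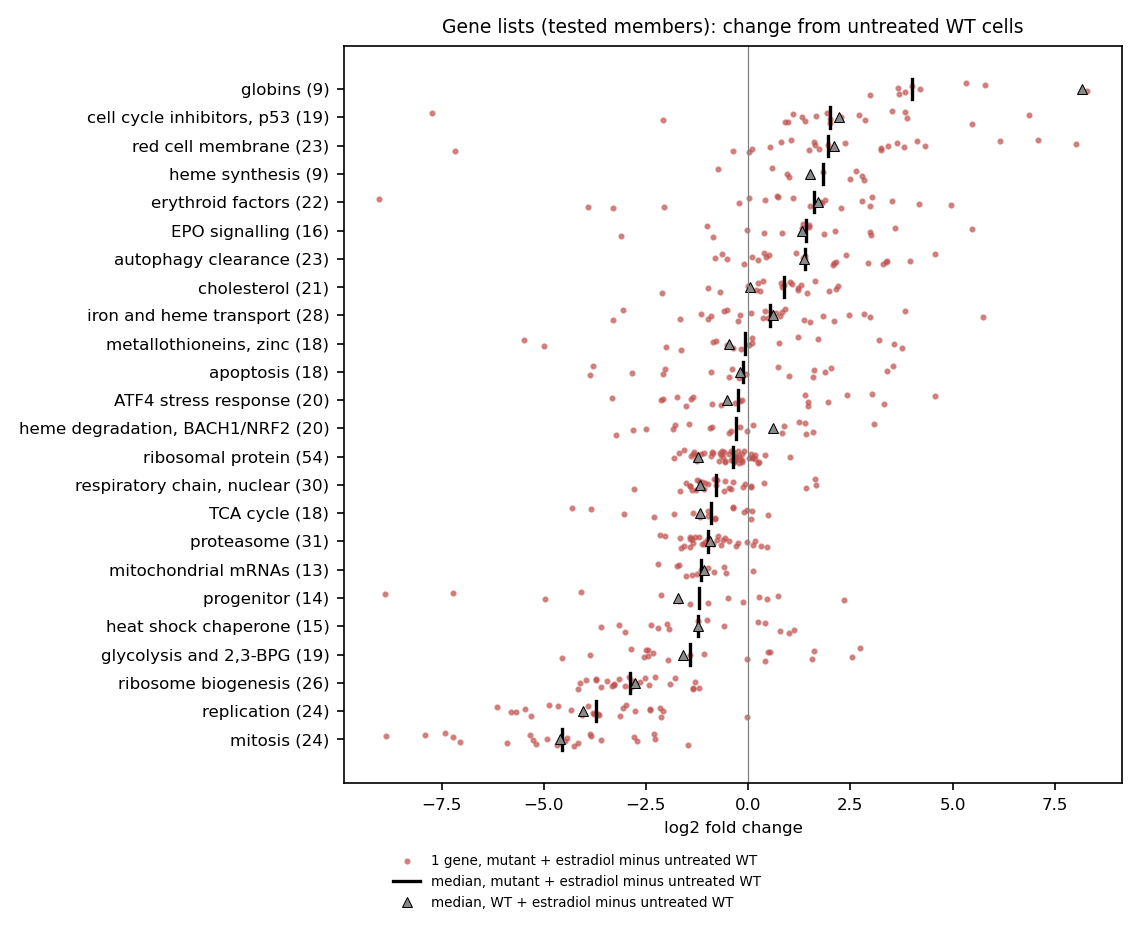
Log2 fold changes of the tested members of each gene list with at least 5 tested genes, marker lists left out, in mutant cells with estradiol against untreated WT cells (points; black bar, median), with the median in WT cells with estradiol against the same untreated libraries (triangle) and the number of tested genes in brackets. The medians shown range from -4.55 for mitosis to 4.01 for globins. The triangle lies farthest from the bar for the globins (8.17), heme degradation (0.61 against -0.30), ribosomal proteins (-1.22 against -0.36) and cholesterol genes (0.05 against 0.88). Other lists have smaller gaps, such as progenitor genes (-1.72 against -1.19).

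All 26 genes of ribosome biogenesis fell by 2-fold or more (27.6% of all genes), with a median log2 fold change of -2.89. Tcof1, a factor of rRNA transcription, had 242, 233 and 229.7 CPM in untreated and 13.4, 13.8 and 12.5 CPM in mutant libraries, and Dkc1, the pseudouridine synthase of rRNA, 265, 264 and 278 and 18.2, 17.6 and 16.1 CPM. The groups were 17.7-fold and 15.6-fold apart. Nolc1, a nucleolar phosphoprotein gene, and Wdr12, of large subunit maturation, had log2 fold changes of -3.73 and -4.11. Exons of Mpp1 overlap those of Dkc1, and those of Carf overlap Wdr12. Ribosomal protein genes fell less and less uniformly: 44 of 54 were lower and 9 higher (45.5% and 42.5% of all genes). Only 11 of the 54 fell by 2-fold or more, a smaller share than over all genes (27.6%). The median was -0.36 against -1.22 in WT cells with estradiol. Rps2 had 1531, 1453 and 1479 CPM in untreated and 409.8, 417 and 436 CPM in mutant libraries (-1.82), and Rpl12, Rpl3 and Rpl27 of the large subunit had log2 fold changes of -1.68, -1.56 and -1.39. Exons of Lrsam1 overlap those of Rpl12. Rps19, the gene mutated in some Diamond-Blackfan anemia, was in contrast higher (0.27), and Rplp0 was not called (0.01, adjusted p = 0.746; below 0 with library totals and with limma on TPM). As a share of all counts the 55 genes of the list took 6.38% ± 0.0583 in untreated, 4.19% ± 0.0703 in mutant and 2.28% ± 0.00839 in WT cells with estradiol. All 54 tested were higher in mutant than in estradiol-treated WT cells (35.1% of all genes in the main test, median 0.75), under each scaling tried.

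**Figure D4:**
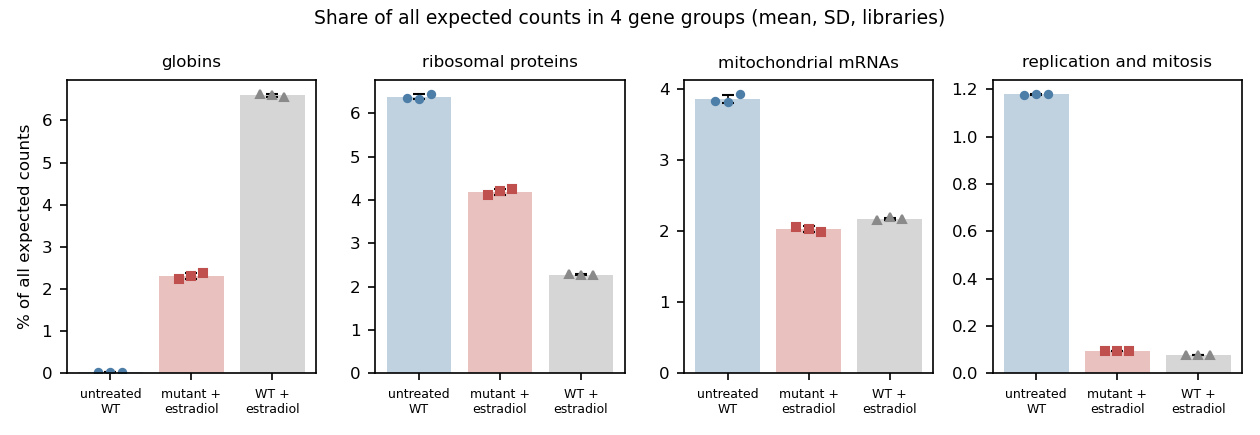
Share of all expected counts taken by globin, ribosomal protein, mitochondrially encoded and replication plus mitosis genes, in percent; bars are means of 3 libraries, error bars SD, and points libraries. The mutant cells lie between untreated and WT cells with estradiol for globins (2.31%) and ribosomal proteins (4.19%), and near the WT cells with estradiol for mitochondrial mRNAs (2.03% against 2.18%) and for replication and mitosis (0.0941% against 0.0773%).

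Genes of energy metabolism were mostly lower, against 45.5% lower and 42.5% higher over all genes tested. Of 13 mRNAs of the mitochondrial genome 12 fell and mt-Co1, a subunit of cytochrome oxidase, was slightly higher (0.11, below 0 with library totals). The complex I genes mt-Nd1, mt-Nd2 and mt-Nd3 had log2 fold changes of -2.20, -1.70 and -1.75, and mt-Cytb, of complex III, -1.53. The share of counts of all 13 was 3.87% ± 0.0614 in untreated and 2.03% ± 0.0391 in mutant cells. The nuclear genes of the respiratory chain fell in 23 of 30 cases and rose in 5 (median -0.79). Uqcrh, of complex III, rose from 135 ± 2.85 to 425 ± 16.4 CPM. Cox10, which acts in the synthesis of heme A for cytochrome oxidase, fell by 2.80. Ndufa1, of complex I, and Atp5c1, of the ATP synthase, had log2 fold changes of 1.63 and -1.67. Genes of the TCA cycle and of succinyl-CoA supply fell in 14 of 18 cases and rose in 2, Ogdh and Sucla2 (median -0.90). Suclg2, the succinyl-CoA ligase subunit for GTP, had 135, 134 and 139 CPM in untreated and 16.1, 17.1 and 16.5 CPM in mutant libraries, and Idh2 and Idh3a, isocitrate dehydrogenases, fell by 4.31 and 3.84. Fh1, fumarase, had a log2 fold change of -2.31. For Ogdh, which makes succinyl-CoA, the difference was small (0.09) and lay below 0 with library totals.
In glycolysis 11 of 19 genes were lower and 7 higher, against 45.5% and 42.5% of all genes. Ldha, lactate dehydrogenase A, had 1503, 1486 and 1526 CPM in untreated and 58.5, 66.4 and 64.9 CPM in mutant libraries, and Pkm, the pyruvate kinase of dividing cells, fell by 2.55. Pgk1, phosphoglycerate kinase, and Hk2, hexokinase 2, had log2 fold changes of -3.87 and -2.87. Pklr, the red cell pyruvate kinase, had 3.35, 2.45 and 3.03 and 17.2, 18.2 and 16.5 CPM, a rise of 2.53 against 0.23 in WT cells with estradiol (mutant minus WT 2.30, adjusted p = 6.91e-20). Hk1, hexokinase 1, and Bpgm, which makes 2,3-bisphosphoglycerate for oxygen release, had log2 fold changes of 2.73 and 1.56, also above WT cells with estradiol (1.02 and 0.69). Exons of Hcn3 overlap Pklr.

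Of 31 proteasome subunit genes 26 fell and 4 rose (45.5% and 42.5% of all genes, median -0.98), Psma1 from 230.3 ± 3.14 to 51.5 ± 0.944 CPM. Psma3 and Psma7, of the core, and Psmd14, the deubiquitinase of the lid, had log2 fold changes of -2.03, -1.67 and -1.63. Of 15 genes of the chaperone list, which also holds genes that are no chaperones, such as Hmgb2, 10 fell (45.5% of all genes) and 5 rose (42.5%), Hspa5, Hspa8, Dnajb1, Bag3 and Dnaja1 (median -1.23). Hspd1 (HSP60), of mitochondrial protein folding, fell by 3.61 and Hsp90ab1 by 3.17. Hsp90aa1 had a log2 fold change of -2.38, and Hmgb2, a chromatin protein, -3.02, while Hspa8 (HSC70) rose by 0.42 and had a log2 fold change of -0.25 in WT cells with estradiol. Exons of Hspe1 overlap Hspd1, and those of Smu1 and Gm6297 overlap Dnaja1.

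Genes of the ATF4 stress response were mixed against untreated cells, with 8 of 20 higher and 12 lower (42.5% and 45.5% of all genes, median -0.26). Eif2ak1 (HRI), the heme-sensing kinase, had 81.9, 80.8 and 83.5 CPM in untreated and 659.6, 663 and 671 CPM in mutant libraries (3.02), and 748 ± 10.3 CPM in WT cells with estradiol. Atf4 itself went from 101, 99.05 and 102 to 258, 261 and 272 CPM (1.39, adjusted p = 4.89e-27), against 0.06 in WT cells with estradiol. Nupr1, a stress-induced chromatin protein, had 5.37, 4.98 and 4.52 CPM in untreated, 49.1, 47.1 and 52.3 in mutant and 5.14 ± 0.546 in WT cells with estradiol. Both were thus higher in mutant than in estradiol-treated WT cells (1.33 and 3.26). Ppp1r15a (GADD34), which reverses the stress brake on translation, and Ddit3 (CHOP), a stress factor, rose by 4.57 and 2.41 against untreated cells. WT cells with estradiol also had 8 of the 20 genes higher and 10 lower (43.3% and 46.4% of all genes), with rises of up to 5.02. Psat1, phosphoserine aminotransferase, had 538, 525 and 552 CPM in untreated, 158, 161 and 159 in mutant and 29.98 ± 0.977 in WT cells with estradiol, and Asns, asparagine synthetase, 776 ± 21.1, 307 ± 5.84 and 107 ± 2.31. Psph, phosphoserine phosphatase, had a log2 fold change of -3.33 in mutant and -3.78 in WT cells with estradiol. In the direct test 14 of the 20 were higher in mutant cells and 5 lower (35.1% and 33.6% of all genes). Exons of Tulp2 overlap Ppp1r15a, those of Cct6a overlap Psph, those of Mars overlap Ddit3, and those of Aimp2 and Ankrd61 overlap Eif2ak1.

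Most genes of cholesterol synthesis and uptake were higher in mutant cells than in untreated and in estradiol-treated WT cells. Of 21 genes 17 were higher and 3 lower than in untreated cells (42.5% and 45.5% of all genes, median 0.88). By 2-fold or more 10 were higher (24.1% of all genes). WT cells with estradiol had 10 higher and 8 lower (43.3% and 46.4% of all genes, median 0.05). In the direct test 19 were higher in mutant than in WT cells and 1 lower (35.1% and 33.6% of all genes). Fdft1, squalene synthase, had 73.4, 72.9 and 72.3 CPM in untreated and 331, 337 and 337 CPM in mutant libraries (2.20), and 236 ± 1.26 CPM in WT cells with estradiol. Msmo1, a methylsterol oxidase, had 88.9, 87 and 92.3 and 407, 401 and 396 CPM, and 238 ± 1.4 in WT cells with estradiol. Lss, lanosterol synthase, and Mvk, mevalonate kinase, had log2 fold changes of 0.84 and 0.81 in mutant and -0.43 and -0.60 in WT cells with estradiol. Ebp, a sterol isomerase, had log2 fold changes of 1.97 and 0.99. Sqle, squalene epoxidase, was not called (-0.01, adjusted p = 0.731). Exons of Ctsb overlap Fdft1.

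Among 18 metallothionein and zinc transporter genes 7 were higher and 9 lower, also near the shares over all genes tested (42.5% and 45.5%). Mt1, a zinc- and copper-binding protein, had 296, 289 and 294 CPM in untreated, 655, 673 and 702 in mutant and 163 ± 4.198 in WT cells with estradiol. Slc30a10, a manganese exporter, went from 26.5 ± 0.834 to 312 ± 3.87 CPM and stood above WT cells with estradiol (0.96), while Slc30a1, the zinc exporter of the cell surface, rose by 3.19 against 4.96. Slc39a8, an importer of zinc and manganese, had a log2 fold change of 3.76. Slc30a2, a vesicular zinc transporter, fell to 19 mutant counts, for an untreated-to-mutant ratio of 45.7 (95% interval 29.1 to 76.2). Exons of Gm2061 overlap Slc30a10.

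Some genes that changed in WT cells with estradiol stayed near their untreated level in mutant cells. They were chosen by these very values, within 0.5 on the log2 scale of untreated cells in the mutant, and are given as a description. Among those higher in WT cells with estradiol, Srxn1, sulfiredoxin, which repairs peroxiredoxins, had 20.2, 20.9 and 20.5 CPM in untreated, 16.3, 19.4 and 17.3 in mutant and 208, 214 and 214 in WT libraries with estradiol. Tspoap1, which binds the translocator protein, had 10.1 ± 1.04, 9.096 ± 0.204 and 74.9 ± 1.97 CPM, Cecr2, a bromodomain protein gene, 6.51 ± 0.5098, 4.76 ± 0.582 and 32.3 ± 0.346, and Acss2, which makes acetyl-CoA from acetate, 183 ± 3.57, 247 ± 3.16 and 618 ± 6.23. Ston2 and Ulbp1 complete the 6. Exons of Ggt7 and Gss overlap those of Acss2. Among those lower in WT cells with estradiol, Mt2, a metallothionein, had 297, 310.0 and 310.2 CPM in untreated, 327, 323 and 335 in mutant and 57.5, 58.7 and 57.1 in WT libraries with estradiol. Itga4, an integrin by which erythroblasts hold on to macrophages and stroma, had 268 ± 3.65, 219 ± 4.71 and 51.4 ± 2.79 CPM, and Kcnn4, the calcium-gated Gardos potassium channel, 33.5 ± 1.79, 38.6 ± 1.84 and 7.25 ± 0.616. Rcn1, Tmco4 and Snd1 complete the 6. On the log2 scale Mt2 lies below the untreated level with library totals (-0.08), and with limma on TPM Ston2 does (-0.37) and Snd1 lies above it (0.73). Exons of Cerkl overlap those of Itga4.

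Other genes were called in opposite directions in mutant and WT cells with estradiol, and were likewise chosen by those values. Il9r, a cytokine receptor gene, had 13.6, 14.1 and 13.2 CPM in untreated, 52.5, 53.7 and 53.5 in mutant and 5.29, 5.72 and 4.09 in WT libraries with estradiol. Tspo2, an erythroid translocator protein of cholesterol traffic, had 20.7 ± 0.349, 45.2 ± 2.25 and 4.78 ± 0.612 CPM, Glrx, glutaredoxin, 16.6 ± 0.599, 33.5 ± 1.01 and 7.83 ± 0.416, and Mtm1, a phosphoinositide phosphatase, 22.5 ± 0.772, 43.2 ± 1.2 and 6.65 ± 0.733. Lower in mutant and higher in WT cells were Igsf3, an immunoglobulin superfamily gene, with 8.82, 6.94 and 8.21, 0.535, 0.477 and 0.456 and 26.1, 22.5 and 23.8 CPM in the same order, Slc7a11, the cystine importer that feeds glutathione synthesis, with 20.9 ± 1.07, 11.4 ± 0.805 and 57.3 ± 1.9, Slc44a1, a choline transporter, with 169.7 ± 3.105, 96.5 ± 1.42 and 319.6 ± 1.78, and the unnamed gene 4930509G22Rik.

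**Figure D5:**
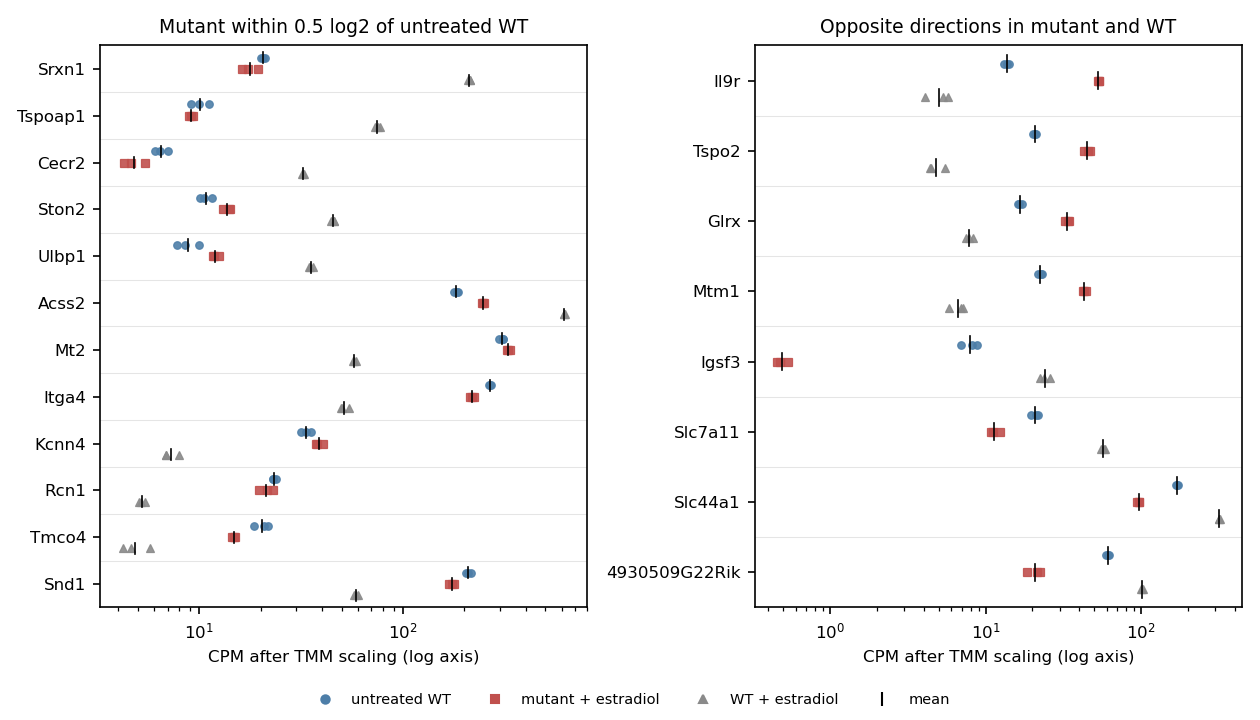
Genes whose mutant level stayed within 0.5 log2 of the untreated level while WT cells with estradiol changed (left), and genes called in opposite directions (right), in CPM on a log axis; points are libraries and bars means. The groups were chosen by these values: Srxn1, for example, stands at 20.5 CPM in untreated, 17.7 in mutant and 212 in WT cells with estradiol.

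Marker genes of blood cells of other kinds and of stroma were examined as a check of the labelled cell type. Erythroid precursor markers were present in all 6 libraries, with Tal1 at 255, 239 and 239.9 CPM in untreated and 406, 412 and 412 CPM in mutant libraries and Tfrc at 392 ± 8.62 and 725 ± 20.2. Of 13 granulocyte and macrophage genes 2 had enough counts for a test and neither was called (88.1% of all genes were). The sum of the list lay between 0.999 and 1.102 CPM in untreated and 0.4085 and 0.729 CPM in mutant libraries. Of the list 6 and 7 members were at 0 counts. Its Itgam, an integrin of myeloid cells, had 0.4996, 0.572 and 0.539 and 0.438, 0.3404 and 0.456 CPM. Of 11 lymphocyte genes 3 were tested and 1 was higher (42.5% of all genes were). This list summed to 1.08 to 1.55 CPM in untreated and 1.52 to 1.85 CPM in mutant libraries, with 3 and 4 members at 0. Its called gene Ms4a1, CD20 of B cells, had 0.5995, 0.531 and 0.488 and 0.827, 0.794 and 1.003 CPM, a call that was lost with library totals and without untreated replicate 3 or mutant replicate 3, leaving 0 called.
The mast cell list moved with the comparison, with 5 of 10 genes tested, 4 lower and 1 higher (45.5% and 42.5% of all genes). The higher gene was Cma1, with 0 counts in untreated and 22 in mutant libraries, and 56 in those of WT cells with estradiol. The sum of the list lay at 145.2 to 160.6 CPM in untreated and 0.912 to 1.02 CPM in mutant libraries, and was 2.92 to 3.49 CPM in WT cells with estradiol. Most of it was Cpa3, a mast cell carboxypeptidase (137, 133 and 148 against 0.438, 0.318 and 0.0912 CPM). Hdc, histidine decarboxylase, had a log2 fold change of -3.49, and Gzmb, granzyme B, had 641 counts in untreated and 0 in mutant libraries, at least 201-fold lower against 3 counts over the group. Fcer1a, Mcpt4, Mcpt8, Tpsb2 and Tpsab1 had too few counts for a test, and 5 members were at 0 in untreated and in mutant libraries.
Of 12 megakaryocyte genes 8 were tested, 4 higher and 3 lower (42.5% and 45.5% of all genes), with sums of 305.7 to 315.6 CPM in untreated, 629.4 to 676.8 in mutant and 1996 to 2023 in WT libraries with estradiol. Itgb3, an integrin of platelets, rose from 89.8, 87.7 and 86.2 to 381, 394 and 396 CPM and made up most of the sum in mutant libraries. Gp1ba, of the platelet receptor for von Willebrand factor, had a log2 fold change of 1.57, and Itga2b and the platelet chemokine Pf4 fell by 2.96 and 3.78. The stroma list had 3 of 9 genes tested, 1 higher and 2 lower (42.5% and 45.5% of all genes). Its sums were 16.7 to 17.1 CPM in untreated and 5.74 to 6.17 CPM in mutant libraries, with 4 members at 0 in each group. Pdgfrb fell by 4.44, and Fn1, fibronectin, had a log2 fold change of 0.26. The part of other cells in the changes described above was not tested.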

How the data were processed

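RNA-seq libraries were made from total RNA with the TruSeq RNA kit, per the labels' protocols. Per the submitters' processing notes, CASAVA 1.8.2, Bowtie 1.1.1, RSEM 1.2.20 and mm10 were used. For annotation release, read length and strand setting nothing is stated in the labels or notes. The authors deposited RSEM expected counts per gene, which share reads among similar genes by a model, and TPM. Expected counts were rounded, low genes were removed by filterByExpr, and composition was scaled by TMM. The main test was edgeR 4.0.16 (R 4.3.3), quasi-likelihood with robust estimates, with 4 group means over all 12 libraries and Benjamini-Hochberg adjustment. The SE is the log2 fold change divided by the root of F, an approximation. Ratios for genes with up to 20 counts over a group carry exact 95% intervals, which cover counting error only, as do floors of 3 counts. The counts of RSEM fix the precision, with 20309085 or more per library. Symbols and exon overlaps came from GENCODE M21 (24746 of 25097 matched), and promoters from RefSeq. Replicates of a group differed by more than sampling noise.

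Members and lists were chosen with earlier results of these data known. Named by rule were Alas2, Gata1 and Gata2, the 10 largest rises and falls, up to 4 members per list by size of change, heme enzymes and globins, members against their list or not called, and the held and opposite genes. Some genes that the rule names are not reported here. Further members were named for their known role after their values were seen. Alternatives were DESeq2 1.42.0, limma 3.58.1 on log2(TPM + 1), other scalings and filters, the compared libraries alone, a replicate block and leaving out each library.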

Additional observations from a re-analysis of the deposited data

Results flagged for a closer look

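The mutant cells with estradiol and 5-ALA enter no comparison of the report, and 3 of their values stood above those of the mutant cells without 5-ALA. Alas2 had 12.32 CPM (12.05 to 12.5 over the 3 libraries). Hmox1 had 149.7 CPM (142.4 to 155.4). Globin genes took 6.386% of all counts (6.162% to 6.571%).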

How the results depend on the processing

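Of 3386 values of 213 genes under the alternatives, 3329 kept their direction and their side of the threshold, 31 lost and 14 gained a call, and 12 turned. With library totals the median of all genes moved by -0.19 on the log2 scale, calls were 4558 higher and 6088 lower, and Car2 (-0.16), Ldb1 (-0.17), Mt2 (-0.08), Rplp0 (-0.18), Ogdh (-0.09) and mt-Co1 (-0.08) turned. With limma on TPM Rplp0 (-0.09), Ston2 (-0.37) and Snd1 (0.73) turned, and with at least 10 CPM in 3 libraries Fen1 (0.08), Xpo7 (0.00) and Sqle (0.09). The cause was not tested.

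Alas2 lost its call with library totals (0.39), limma on TPM (0.39) and the 6 libraries alone (0.62), and leaving out each library gave 0.47 to 0.79. Of 492 list counts 18 moved by more than 1.5 times. Counting changes of 2-fold or more left 9 iron and heme transport genes higher, and 6 heme degradation, 7 ATF4, 4 zinc, 5 apoptosis, 11 ribosomal protein, 7 TCA, 12 respiratory and 15 proteasome genes lower. It left 10 cholesterol, 2 megakaryocyte and 0 lymphocyte genes higher. Over all genes 24.1% were higher and 27.6% lower by 2-fold or more. The lymphocyte count was also 0 with library totals and with at least 10 CPM, and 0 to 1 when a library was left out, and that filter left 1 mast cell and 1 stroma gene lower, since fewer genes were tested.

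Between mutant and WT cells with estradiol limma on TPM called 2326 genes lower, 222 of them by 2-fold or more, and the filter of 10 CPM left 341 higher and 335 lower by 2-fold or more. Taken from the sum of TPM, the mutant minus untreated shares were 6.733 percentage points for globins, -3.848 for ribosomal proteins, -4.358 for mitochondrial mRNAs, -0.6763 for replication and mitosis and 2.445 for Ftl1, and with globins left out -2.095 for ribosomal proteins.

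Same-numbered untreated and mutant libraries did not deviate together (correlations of -0.419, -0.00293 and -0.327), and differently numbered ones had -0.14 to 0.41. Pairing by number was thus not seen, though 3 libraries per group cannot exclude it. A replicate block gave 5133 genes higher and 5503 lower, 2912 and 3350 by 2-fold or more, and 4216 and 4029 between mutant and WT cells with estradiol. Limits: depth leaves genes with few counts in a group, such as the minor globins, with wide intervals. Read sharing between paralogs and overlapping genes cannot be resolved from these counts.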
